A study of Mus musculus with 18 samples.

Results

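The comparison described here set hearts of mouse embryos at E16.5 against hearts at E12.5 (E, embryonic day), across all genes, to ask which transcripts separate the late fetal heart from the mid-gestation heart. All 4 E16.5 libraries and all 4 E12.5 libraries were taken by their age label, 8 of the 18 heart RNA-seq libraries of a time course that also sampled E9.5 (3 libraries), E10.5 (4) and E14.5 (3). Both ages were wild-type C57BL/6 embryos with no transgene or treatment named, and each library held heart RNA of male and female embryos pooled together. The labels do not say how many hearts entered a pool or whether the pools of an age came from separate litters. A p-value here is set against the spread between libraries of the same age, estimated over all 18 libraries. That spread may therefore be partly technical.

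Between these ages the ventricular wall of the mouse compacts and thickens, septation of the heart is completed, the coronary vessels connect to the aorta, and the muscle cells go on dividing. Towards birth the heart muscle cell prepares to change its main fuel from glucose and lactate to fatty acids, and it exchanges early isoforms of contractile, calcium-handling and metabolic proteins for those of the adult cell. The blood that circulates through the heart changes as well, because red cells from the yolk sac are replaced by red cells from the fetal liver.

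The files held raw counts per gene for 49315 Ensembl identifiers. The E16.5 libraries totalled 32550626 to 34109851 counts and the E12.5 libraries 36361812 to 45646538 counts, so that 3 counts, the least taken here as a signal, equalled 0.0657 to 0.0976 CPM, counts per 1000000 counts of the library, over the time course. Age separated the 8 libraries on the first principal component, which held 67.1% of the variance. The library of E12.5 replicate 4 stood apart from the other E12.5 libraries on the second component (16.1%). In it 8 transcripts of activated macrophages and dendritic cells summed to 2.75 CPM, against 341 to 572 CPM in the E16.5 libraries and 346 to 676 CPM in the other E12.5 libraries, and globin transcripts took 1.62% of its counts, against 3.12 to 4.87% in the other E12.5 libraries. The tissue label was checked on heart muscle transcripts, which were abundant in all 8 libraries, with Tnnt2, which encodes cardiac troponin T, at 10075, 9217, 9255 and 9048 CPM in the E16.5 libraries, against 4711, 4289, 4648 and 3600.5 CPM in the E12.5 libraries.

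Of 18885 genes with enough counts to test, 8203 (43.4%) differed between the ages at an adjusted p under 0.05 (edgeR quasi-likelihood test, Benjamini-Hochberg adjustment over all genes tested, from which all adjusted p-values of genes come). At E16.5, 3815 genes (20.2%) were higher and 4388 (23.2%) were lower than at E12.5. Which side was the larger depended on the fit, with 4229 higher and 3990 lower when the 8 libraries of both ages were fitted alone, 4030 and 4064 with RLE size factors, and 3370 and 5122 with library totals only. A change of at least 2-fold was reached by 1165 of the higher genes (6.17% of those tested) and 915 of the lower genes (4.85%). The 4 E16.5 libraries lay wholly above the 4 E12.5 libraries for 3829 genes (20.3%) and wholly below them for 4220 genes (22.3%). These shares are the background against which the counts for gene groups are to be read, and the median log2 fold change over all genes tested was -0.03. In whole hearts, a change in the number of cells of a type and a change in RNA per cell cannot be told apart.

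**Figure D1:**
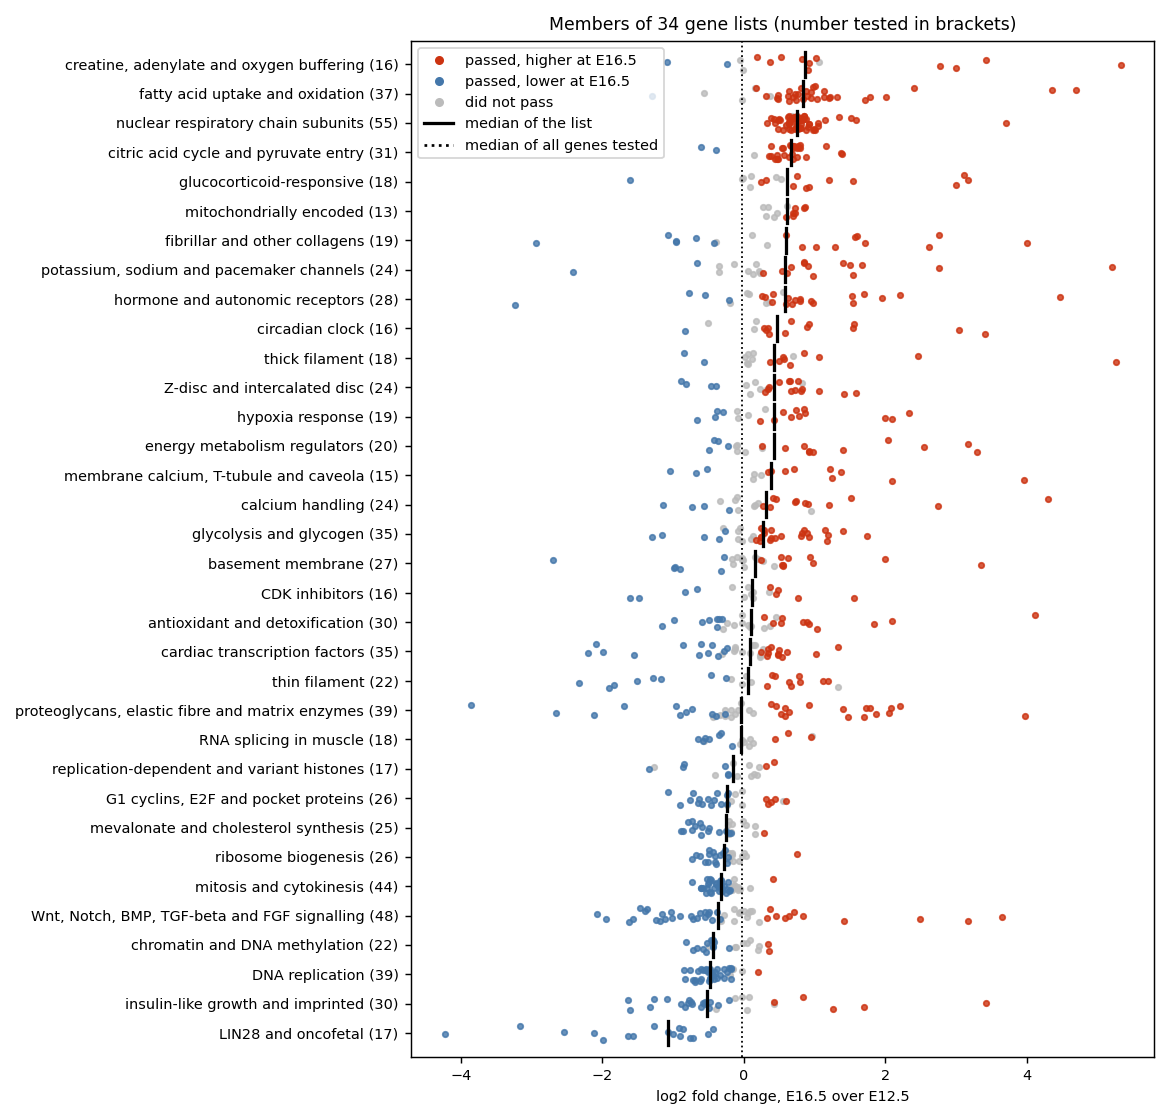
Log2 fold change (E16.5 over E12.5, x axis) of every tested member of 34 pathway gene lists (rows). Red points passed the test as higher at E16.5, blue points as lower and grey points did not pass; black bars are list medians and the dotted line is the median of all genes, and the fatty acid, citric acid cycle and respiratory chain lists lie to the right while the DNA replication, mitosis and oncofetal lists lie to the left.

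Several contractile genes of heart muscle rose at E16.5, while troponin, actin and calponin genes of skeletal and smooth muscle fell. Among 18 thick-filament and M-band genes there were 9 rises, 2 falls and 7 that did not pass, with a median log2 fold change of 0.43. Myom2, which encodes M-protein, a cross-linker of myosin filaments at the M-band, had 230.2, 168, 183 and 173 CPM in the E16.5 libraries, against 5.76, 4.05, 4.70 and 5.04 CPM in the E12.5 libraries (log2 fold change 5.27 ± 0.21 SE, adjusted p = 1.89e-11). Its 3 E14.5 libraries lay between the ages at 32.4, 30.7 and 40.8 CPM. The M-band gene Myom3 (myomesin 3, 2.46, below 1 CPM in both ages) rose with it. The slow heavy chain Myh7 had 8819.5, 10789.6, 7225 and 6369 CPM in the E16.5 libraries, against 5679, 5366, 5529 and 6119 CPM in the E12.5 libraries (log2 fold change 0.55 ± 0.13, adjusted p = 0.00209), and 13.3% of its exon bases lie under Gm31251 on the opposite strand. The fast heavy chain Myh6 had 2839.8, 3467, 2957 and 2389 CPM at E16.5, against 2833, 2636, 2346 and 3347 CPM at E12.5, and these values overlapped (adjusted p = 0.767). Per kilobase of exon, Myh7 stood at 963 ± 226 CPM per kilobase at E16.5 and 658 ± 37.5 at E12.5, and Myh6 at 433 ± 65.9 at E16.5 and 415 ± 62.6 at E12.5 (SD, n = 4 each).

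The 22 thin-filament genes moved both ways: 9 were higher, 8 lower and 5 not past the threshold (median 0.06). Troponin T of the heart, Tnnt2, rose with a log2 fold change of 1.12 ± 0.10 (adjusted p = 4.07e-08). Tnni3, the adult cardiac troponin I, had 1099, 952, 930.1 and 1126 CPM in the E16.5 libraries, against 497, 421, 501 and 381 CPM in the E12.5 libraries (log2 fold change 1.19 ± 0.11). The fetal troponin I, Tnni1, also rose (0.67), so that both troponin I transcripts were higher. Acta1, the actin of skeletal muscle that early heart muscle also makes, fell to 78.9, 75.6, 76.3 and 91.2 CPM in the E16.5 libraries, against 242, 235, 208 and 235 CPM in the E12.5 libraries (log2 fold change -1.51 ± 0.09). Fast skeletal troponins Tnni2 (-2.33) and Tnnt3 (-1.91) and the smooth-muscle genes Tagln (-1.84) and Cnn1 (-1.28) fell too. Of 24 Z-disc and intercalated-disc genes, 14 rose, 4 fell and 6 did not pass (median 0.43). The rises, 3 of them by at least 2-fold, included Nrap (1.42), a scaffold of growing myofibrils, and Myoz2 (calsarcin, 1.06). Csrp3 (muscle LIM protein, 0.83) and the chaperone Cryab (0.81) rose as well. Among junction genes the desmosomal cadherins Dsc2 (-0.88) and Dsg2 (-0.39) and the atrial and conduction-system connexin Gja5 (-0.47) fell.

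Genes of calcium storage and release rose more often than they fell. Of 24 calcium-handling genes, 12 rose and 4 fell, with 8 not passing, and their summed level was 9027 to 9296 CPM at E16.5 and 6105 to 6999 CPM at E12.5. Casq2, the calcium-binding protein of the cardiac sarcoplasmic reticulum, had 872, 915, 866 and 966 CPM in the E16.5 libraries, against 159, 132, 115 and 134 CPM in the E12.5 libraries (log2 fold change 2.74 ± 0.19, adjusted p = 7.22e-09). Every E16.5 library lay far above every E12.5 library. Sln, which encodes sarcolipin, an inhibitor of the calcium pump in atrial muscle, had 271, 159, 265 and 277 CPM at E16.5, against 11.5, 13.4, 14.2 and 10.3 CPM at E12.5 (log2 fold change 4.30 ± 0.27). Pln, which encodes phospholamban, the pump inhibitor of ventricular muscle, had 1686, 1494, 1492 and 1687 CPM at E16.5, against 704, 671, 701 and 691 CPM at E12.5. Its log2 fold change was 1.20 ± 0.18, and 64.7% of its exon bases lie under Gm47644 on the opposite strand, whose reads cannot be told apart without a known strand setting. The pump itself, Atp2a2 (0.45), and the release channel Ryr2 (0.74) rose too. Casq1, the skeletal-muscle calsequestrin (-1.15), and Calr, the calreticulin of embryonic heart (-0.56), fell.

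**Figure D2:**
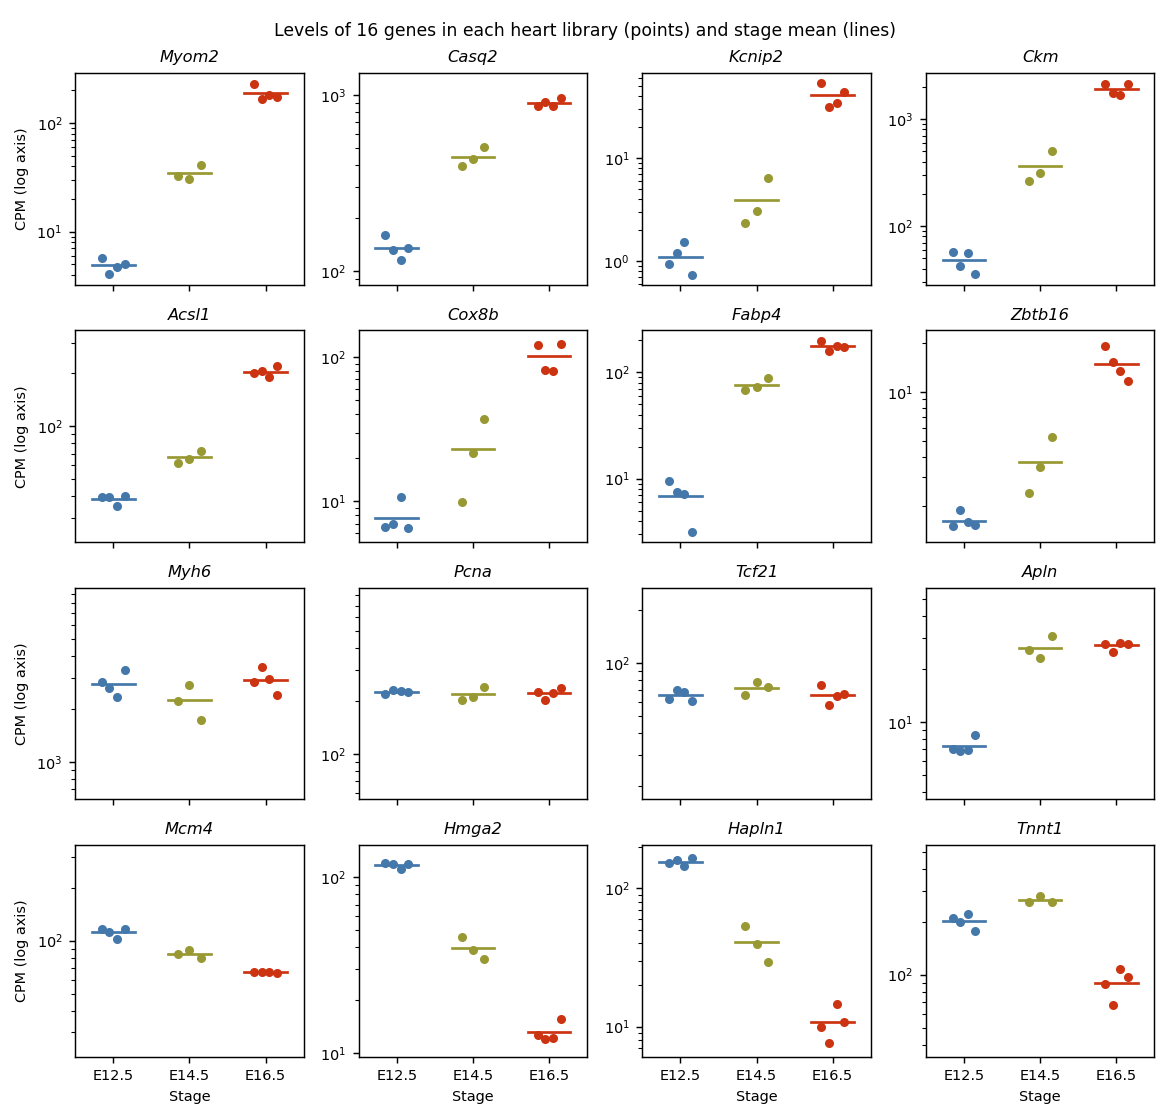
Levels of 16 genes in CPM on log axes, with 1 point per library and a line at the mean of each age (E12.5, E14.5, E16.5). Myom2, Casq2, Kcnip2 and Ckm lie higher in every E16.5 library than in any E12.5 library, Hmga2 and Hapln1 lie lower, and Myh6, Pcna and Tcf21 overlap between the ages.

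Among 15 genes of the surface calcium channels, T-tubules and caveolae, 9 rose, 3 fell and 3 did not pass (median 0.38). Cavin4, a coat protein of muscle caveolae, had 31.5, 38.2, 30.6 and 32.8 CPM in the E16.5 libraries, against 2.36, 1.87, 2.29 and 2.03 CPM in the E12.5 libraries (log2 fold change 3.96 ± 0.19). The caveolar coat protein Cav1, which endothelium also makes, rose by 2.10 on the log2 scale. The adult L-type channel Cacna1c rose (0.71), and of the embryonic T-type channels Cacna1h fell (-0.67) while Cacna1g rose (1.38). The accessory subunit Cacna2d2 fell (-1.04).

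Of 24 potassium, sodium and pacemaker channel genes, 14 rose, 2 fell and 8 did not pass (median 0.58). Kcnip2 encodes the subunit that, with its pore partners, forms the fast transient outward potassium current. It had 53.1, 31.5, 34.4 and 43.9 CPM in the E16.5 libraries, against 0.932, 1.19, 1.52 and 0.739 CPM in the E12.5 libraries (log2 fold change 5.20 ± 0.38, adjusted p = 3.37e-08). Those pore partners, Kcnd2 (0.13) and Kcnd3 (-0.35), did not pass. Both subunits of the slow delayed rectifier rose. Its pore Kcnq1 had 55.7, 55.1, 53.7 and 61.1 CPM at E16.5, against 17.1, 16.4, 18.7 and 18.4 CPM at E12.5 (log2 fold change 1.67 ± 0.10), and its regulatory subunit Kcne1 had a log2 fold change of 1.40. The potassium channel Kcnj8, which marks pericytes and also forms ATP-sensitive channels, rose (2.77). The sodium channel accessory subunit Scn4b, below 2 CPM, fell (-2.41).

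Receptors by which hormones and nerves act on the heart rose more often than they fell, since of 28 such genes tested 18 rose, 4 fell and 6 did not pass (median 0.58). Chrm2, the muscarinic receptor through which the vagus slows the heart, had 62.0, 61.6, 63.4 and 63.0 CPM in the E16.5 libraries, against 17.9, 19.9, 16.2 and 22.6 CPM in the E12.5 libraries (log2 fold change 1.71 ± 0.13). The adenosine receptor Adora1 (1.53), the angiotensin receptor Agtr1a (1.54) and the mineralocorticoid receptor Nr3c2 (1.96) rose as well. The beta-adrenergic receptor Adrb1 rose (0.98). Natriuretic peptides Nppa (0.32) and Nppb (0.35) did not pass.

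Genes of mitochondrial fuel use rose together. Of 37 genes of fatty acid uptake and oxidation, 32 rose (13 by at least 2-fold), 1 fell and 4 did not pass. Their median log2 fold change was 0.83, against -0.03 over all genes, and their summed level was 6226 to 6657 CPM at E16.5 and 3234 to 3419.8 CPM at E12.5. Acsl1, which activates fatty acids for oxidation, had 201, 206, 191 and 220.3 CPM in the E16.5 libraries, against 39.7, 39.4, 35.0 and 39.9 CPM in the E12.5 libraries (log2 fold change 2.41 ± 0.08, adjusted p = 2.06e-13). Its E14.5 libraries, at 62.1, 64.9 and 72.7 CPM, were closer to E12.5 than to E16.5. Fabp3, the fatty acid carrier of heart muscle, had 850.2, 703, 699.8 and 937 CPM at E16.5, against 238, 226, 250.2 and 209.7 CPM at E12.5 (log2 fold change 1.79 ± 0.12, with 19.6% of its exon bases under Zcchc17 on the opposite strand). The surface transporter Cd36 (1.71), the oxidation enzymes Acaa2 (1.32) and Acadvl (1.21) and the triglyceride enzyme Dgat2 (2.01) moved the same way.

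Regulators of this programme were mixed: of 20 genes 11 rose, 4 fell and 5 did not pass. Ppara, the nuclear receptor that switches on fatty acid oxidation, had 18.5, 15.8, 14.9 and 19.1 CPM in the E16.5 libraries, against 1.15, 1.81, 2.04 and 2.56 CPM in the E12.5 libraries (log2 fold change 3.17 ± 0.26). Perm1, a muscle partner of the PGC-1 coactivators, had 43.6, 45.5, 38.8 and 40.2 CPM at E16.5, against 5.40, 3.54, 4.27 and 3.88 CPM at E12.5 (log2 fold change 3.30 ± 0.12). Both were low at E12.5, and no library of either gene overlapped between the ages. Klf15 (2.55), the coactivator Ppargc1a (0.93) and the mitochondrial deacetylase Sirt3 (0.85) rose, while the corepressor Nrip1 (-0.49), Esrrg (-0.37), Nrf1 (-0.23) and the AMP-kinase subunit Prkaa1 (-0.42) fell.

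Downstream of the fuels, 28 of 31 genes of the citric acid cycle and pyruvate entry rose and 2 fell (median 0.67). The largest rises in that list included Pdk2 (1.40), a kinase that switches pyruvate dehydrogenase off, and the mitochondrial pyruvate carrier subunit Mpc1 (1.38), of which 23.1% of exon bases lie under another gene on the opposite strand. The members that fell were Ogdhl (-0.61) and Pdp2 (-0.40), a phosphatase that switches pyruvate dehydrogenase on. Of 55 nuclear-encoded subunits of the respiratory chain and ATP synthase, 53 rose and 2 did not pass (Atp5k and Ndufa3, log2 fold changes 0.60 and 0.68). Most of these steps were small, with a median of 0.75, and examples were Cyc1 (1.05), Ndufa8 (1.15) and Uqcrc1 (0.72). Cox8b, the muscle isoform of a cytochrome oxidase subunit, changed most, with 120.1, 81.5, 80.2 and 122 CPM in the E16.5 libraries, against 6.61, 6.97, 10.8 and 6.55 CPM in the E12.5 libraries (log2 fold change 3.70 ± 0.34). Of the 13 genes encoded in mitochondrial DNA, 7 rose and 6 did not pass (median 0.61), and 12 rose without the 5 libraries of the series that were low in macrophage-type transcripts (E12.5 replicate 4 and 4 libraries of E9.5 and E10.5). The most abundant, mt-Co1, took 2.23 ± 0.265% of all counts at E16.5 and 1.43 ± 0.152% at E12.5 (SD, n = 4 each). All mitochondrially encoded transcripts together took 4.65 to 6.44% of counts in the E16.5 libraries and 3.26 to 3.82% in the E12.5 libraries.

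Glucose handling moved less evenly. Of 35 genes of glycolysis and glycogen, 22 rose, 5 fell and 8 did not pass (median 0.28). Slc2a1, the basal glucose transporter of embryonic tissues, fell to 272, 214, 176 and 204 CPM in the E16.5 libraries, against 431, 449, 534 and 525 CPM in the E12.5 libraries (log2 fold change -1.16 ± 0.12). Slc2a4, the insulin-regulated transporter, had 68.9, 63.0, 57.6 and 58.3 CPM at E16.5, against 26.5, 26.4, 29.2 and 27.7 CPM at E12.5 (log2 fold change 1.17 ± 0.07). Per kilobase of exon Slc2a1 was still the higher at E16.5, at 61.8 ± 11.5 CPM per kilobase against 17.8 ± 1.5 CPM per kilobase for Slc2a4 (SD, n = 4). The transporter Slc2a3 (-1.30) and the lactate exporter Slc16a3 (-0.56) fell, and muscle phosphofructokinase Pfkm (0.93) rose.

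Energy and oxygen buffers of muscle gave some of the steepest changes. Ckm, the muscle creatine kinase (GRCm38 chr7:19404776-19422841), had 2121, 1739.7, 1674 and 2144 CPM in the E16.5 libraries, against 57.0, 42.2, 56.3 and 35.3 CPM in the E12.5 libraries (log2 fold change 5.33 ± 0.44, adjusted p = 2.70e-07). Of its exon bases 15.5% lie under A930016O22Rik on the opposite strand. Its E14.5 libraries were spread between the ages at 265, 310.1 and 506 CPM. Ckmt2, the mitochondrial creatine kinase of muscle, had 48.9, 40.9, 46.6 and 47.7 CPM at E16.5, against 6.39, 5.60, 4.93 and 6.15 CPM at E12.5 (log2 fold change 3.0 ± 0.10). Mb, which encodes myoglobin, had 1258, 869, 961 and 1284 CPM at E16.5, against 158, 167, 194 and 116 CPM at E12.5 (log2 fold change 2.78 ± 0.20, with 31.9% of its exon bases under Gm49540 on the opposite strand). The creatine transporter Slc6a8 rose (0.92), while the creatine-synthesis enzymes Gatm (-1.09) and Gamt (-0.24) fell. Gamt no longer passed with no filter on low counts, or without E12.5 replicate 3, E16.5 replicate 1 or E16.5 replicate 2 (adjusted p of 0.0562 to 0.104). Over the list of 16 tested, 11 rose, 2 fell and 3 did not pass.

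Ratios between a later and an earlier isoform were compared for 22 pairs, as a description with no test. Each ratio uses levels per kilobase of exon, on the log2 scale. In 18 pairs every E16.5 library had a higher ratio than every E12.5 library, in 1 pair every E16.5 library had a lower ratio, and in 3 pairs the ages overlapped. The muscle over the brain creatine kinase, Ckm over Ckb, ran 2.95 to 3.30 at E16.5 and -2.17 to -1.64 at E12.5, and crossed 0 between the ages. Adult over embryonic beta-globin, Hbb-bs over Hbb-y, ran 5.93 to 8.41 at E16.5 and -6.42 to -5.08 at E12.5. The laminin chain of muscle over the embryonic chain, Lama2 over Lama1, ran 4.80 to 5.56 at E16.5 and 1.77 to 2.04 at E12.5. Muscle enolase over the general enolase, Eno3 over Eno1, ran 0.50 to 0.72 at E16.5 and -0.86 to -0.77 at E12.5, and crossed 0 as well. In other pairs the earlier isoform stayed the more abundant in every library of both ages, as in Slc2a4 over Slc2a1 (-1.97 to -1.60 at E16.5 and -4.23 to -4.01 at E12.5) and Cox8b over Cox8a (-1.71 to -1.33 at E16.5 and -4.88 to -4.55 at E12.5). The reverse case was alpha over beta myosin heavy chain, Myh6 over Myh7, with -1.28 to -0.93 at E16.5 and -0.88 to -0.51 at E12.5. In 7 of the 22 pairs the later isoform rose and the earlier fell by the test, and among these the fall of Eno1 (-0.26) no longer passed without E16.5 replicate 3.

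Genes of cell division fell, each by a modest step. Of 39 DNA-replication genes 35 fell, 1 rose and 3 did not pass, with a median log2 fold change of -0.47 and none beyond 2-fold, and their summed level was 2217 to 2351 CPM at E16.5 and 2887 to 3376 CPM at E12.5. Of 44 genes of mitosis and cytokinesis 33 fell, 1 rose and 10 did not pass (median -0.33). Mcm4, a subunit of the replicative helicase, had 66.1, 66.7, 66.4 and 65.4 CPM in the E16.5 libraries, against 117, 113, 102 and 117 CPM in the E12.5 libraries (log2 fold change -0.76 ± 0.06, adjusted p = 3.54e-09). Mki67, which encodes the proliferation antigen Ki-67, had 166, 216, 197 and 163 CPM at E16.5, against 248, 271, 312 and 292 CPM at E12.5 (log2 fold change -0.60 ± 0.15). The replication clamp Pcna did not pass, with 226, 202, 221 and 238 CPM at E16.5, against 219, 231, 228 and 224 CPM at E12.5 (log2 fold change -0.03 ± 0.07, adjusted p = 0.812). The members that rose were thymidine kinase Tk1 (0.21), which no longer passed with library totals only or without E16.5 replicate 1 or 2, and the phosphatase Cdc25b (0.41), which no longer passed without the 5 libraries low in macrophage-type transcripts.

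Start sites of genes from these lists show letters of factors that textbooks place upstream of the cell cycle, E2F for genes of the S phase and the CHR and CCAAT boxes for genes of G2 and mitosis. RefSeq sequence (GRCm38.p6) of the 150 bases before the annotated start is printed for 2 helicase genes that fell, Mcm5 and Mcm6, and 2 mitotic genes that fell, Cdk1 and Ccnb1. Capitals mark exact matches to the E2F variant (TTTGGCGC), the CCAAT box (CCAAT) and the CHR (TTTGAA) on either strand.
Mcm5 (chr8:75109359-75109508, plus strand): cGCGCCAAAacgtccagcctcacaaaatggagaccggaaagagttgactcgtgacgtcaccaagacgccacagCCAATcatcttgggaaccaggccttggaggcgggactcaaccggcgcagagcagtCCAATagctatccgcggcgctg
Mcm6 (chr1:128359706-128359855, minus strand): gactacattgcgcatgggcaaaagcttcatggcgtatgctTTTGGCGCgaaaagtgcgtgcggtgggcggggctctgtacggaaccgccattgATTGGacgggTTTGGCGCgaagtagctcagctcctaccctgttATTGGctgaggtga
Cdk1 (chr10:69352913-69353062, minus strand): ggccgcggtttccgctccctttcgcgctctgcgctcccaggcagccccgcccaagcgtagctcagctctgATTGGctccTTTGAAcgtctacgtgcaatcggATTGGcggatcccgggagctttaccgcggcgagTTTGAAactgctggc
Ccnb1 (chr13:100786487-100786636, minus strand): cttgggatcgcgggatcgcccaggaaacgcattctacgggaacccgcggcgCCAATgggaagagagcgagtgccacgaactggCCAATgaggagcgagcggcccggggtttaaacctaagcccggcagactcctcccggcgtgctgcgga
The Mcm5 stretch holds the E2F variant once, with its first base at -149 from the start, and the Mcm6 stretch holds it at -110 and -47, with CCAAT boxes in both. The Cdk1 stretch holds CCAAT boxes at -80 and -48 and the CHR at -71 and -15, and the Ccnb1 stretch holds CCAAT boxes at -99 and -67.

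Levels of these 4 genes were close between ages and yet did not overlap. Mcm5 had 92.6, 92.7, 89.6 and 89.5 CPM in the E16.5 libraries, against 127, 126, 123 and 141 CPM in the E12.5 libraries (log2 fold change -0.50 ± 0.06). Mcm6 had 127, 131, 135 and 134 CPM at E16.5, against 206, 177, 179 and 201 CPM at E12.5 (log2 fold change -0.53 ± 0.06). Cdk1 had 92.4, 91.8, 89.7 and 98.6 CPM at E16.5, against 128, 114, 117 and 114 CPM at E12.5 (log2 fold change -0.34 ± 0.06). Ccnb1, the mitotic cyclin, showed the largest step of the 4, with 98.4, 119, 105 and 110.2 CPM at E16.5, against 162, 164, 148 and 183 CPM at E12.5 (log2 fold change -0.60 ± 0.07). Windows of 300 bases ran from 250 bases before to 50 after the start. In them an E2F match (TTTCCCGC or TTTGGCGC) occurred in 11 of the 32 replication genes with a window (34.4%). The share was 1.63% of all 27025 windows and 2.84% of the 12111 windows of tested protein-coding genes. It was 3.84% for protein-coding genes that fell and 1.84% for those that rose. Among those changed at least 2-fold it was 0.94% for falls and 0.996% for rises. The CHR occurred in 25 of 36 mitosis genes (69.4%), against 18.1% of all windows, and the CCAAT box in 26 of them (72.2%), against 37.9%. Of the windows of tested protein-coding genes, 12.1% held the CHR and 38.4% the CCAAT box. The CCAAT box occurred in 59.4% of the replication windows, and also in 59.3% of those of the citric acid cycle list, whose members mostly rose. A match is a description of letters in a window, and a window without one says nothing about the factor.

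Around the division machinery, of 26 genes of G1 cyclins, E2F and pocket proteins 15 fell, 5 rose and 6 did not pass. Cdk4 (-0.60; 19.7% of exon bases under Tspan31), cyclin E1 (Ccne1, -0.65) and Mycn (-0.76) fell, and E2f1 rose (0.44). Cell-cycle inhibitors moved in both directions, with 5 of 16 higher, 4 lower and 7 not passing. Cdkn1c, an imprinted inhibitor that is abundant in embryonic tissues, fell to 359, 366, 349.9 and 379.7 CPM in the E16.5 libraries, against 1098, 1026, 1193 and 1137 CPM in the E12.5 libraries (log2 fold change -1.61 ± 0.07; 30.7% of its exon bases lie under Gm44732 on the opposite strand). Cdkn2c, which inhibits CDK4 and CDK6, had 61.1, 61.6, 60.4 and 74.7 CPM at E16.5, against 22.9, 20.1, 22.8 and 21.8 CPM at E12.5 (log2 fold change 1.56 ± 0.09).

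Embryonic growth regulators fell without exception in the list of LIN28 targets and oncofetal genes, where 17 of 17 tested were lower, 9 of them by at least 2-fold (median -1.07). Hmga2, a chromatin protein of growing embryonic tissue (GRCm38 chr10:120361275-120476469), had 12.7, 12.1, 12.2 and 15.6 CPM in the E16.5 libraries, against 121, 119.8, 112 and 119 CPM in the E12.5 libraries (log2 fold change -3.17 ± 0.09, adjusted p = 3.72e-14). Trim71, a let-7 target that keeps stem cells dividing, had 0.128, 0.0893, 0.370 and 0.326 CPM at E16.5, against 2.82, 4.68, 5.20 and 4.49 CPM at E12.5 (log2 fold change -4.23 ± 0.31). Its value in E16.5 replicate 2 lies at about the level of 3 counts (0.0880 CPM in that library). Arid3a (-2.55), Arid3b (-1.99) and the RNA-binding protein Igf2bp1 (-1.56) followed. Of 30 genes of insulin-like growth factor signalling and imprinted loci, 19 fell, 5 rose and 6 did not pass (median -0.52). Igf2, the fetal growth factor, had 4568, 4597, 4813 and 4985 CPM at E16.5, against 5847, 6385, 5399 and 6748 CPM at E12.5 (log2 fold change -0.36 ± 0.07), with 62.8% of its exon bases shared with Gm49394 on the same strand. H19, the non-coding RNA of the same locus, took 0.842 ± 0.0287% of all counts at E16.5 and 1.23 ± 0.127% at E12.5 (SD, n = 4 each). Igfbp6 (3.43), Igfbp7 (1.69) and Dlk1 (1.26) rose.

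Housekeeping of growth fell as well, though by small steps. Of 26 ribosome-biogenesis genes 16 fell, 1 rose and 9 did not pass (median -0.27), with nucleophosmin Npm1 (-0.73) and Nop56 (-0.67) among the falls. Of 22 chromatin and DNA-methylation genes 12 fell, 2 rose and 8 did not pass (median -0.43), with Hells (-0.82) and Dnmt3a (-0.66) among the falls. Splicing factors of muscle gave 7 falls and 3 rises in 18 genes; Ptbp1 (-0.57) and Hnrnpa1 (-0.65) fell, and Rbm20 (0.94) and Rbm24 (0.63), which splice titin and other muscle transcripts, rose. The mevalonate and cholesterol pathway, which the series title names, had 15 falls, 1 rise and 9 genes that did not pass among 25 (median -0.26). Acat2 (-0.86), Cyp51 (-0.79) and Fdft1 (-0.74) fell, and Srebf1, a transcription factor of lipid synthesis, rose (0.29).

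Of 35 cardiac transcription factors 12 rose, 12 fell and 11 did not pass (median 0.09). Hand1, a factor of the early left ventricle and outflow tract, had 7.11, 9.40, 8.45 and 8.40 CPM in the E16.5 libraries, against 39.2, 31.4, 31.9 and 40.3 CPM in the E12.5 libraries (log2 fold change -2.10 ± 0.13). Gata5 (-1.99), Irx6 (-2.21) and Isl1 (-1.56), a factor of cardiac progenitors and neurons, fell too. Factors of the working muscle rose by small steps, among them Nkx2-5 (0.49), Mef2a (0.61) and Gata6 (0.55), and Hopx rose by 1.01, with 27.2% of its exon bases under Hopxos on the opposite strand. In the Wnt, Notch, BMP, TGF-beta and FGF pathways 25 of 48 genes fell, 11 rose and 12 did not pass (median -0.36). Wnt5a, a ligand of the outflow tract, had 29.1, 30.1, 35.0 and 33.9 CPM at E16.5, against 86.6, 101, 91.6 and 117 CPM at E12.5 (log2 fold change -1.63 ± 0.10). The ligand Bmp2 (-1.24), the receptor Fgfr2 (-1.19) and the BMP target Id2 (-1.16) fell, and the ligands Fgf16 (3.66) and Fgf18 (2.5) and the Notch target Heyl (1.42) rose.

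Matrix genes moved in opposite directions, with components of the cardiac jelly lower and several fibre-associated proteins higher. Of 19 fibrillar and other collagens 10 rose, 6 fell and 3 did not pass (median 0.60). Col14a1, a collagen that sits on fibril surfaces, had 102, 105, 108 and 81.6 CPM in the E16.5 libraries, against 17.0, 19.2, 12.1 and 16.7 CPM in the E12.5 libraries (log2 fold change 2.61 ± 0.13). Col15a1 (2.75) and Col6a1 (1.61) rose, and the cartilage collagen Col9a1 fell (-2.94). Among 39 proteoglycans, elastic-fibre genes and matrix enzymes 17 rose, 11 fell and 11 did not pass (median -0.03). Hapln1, which links hyaluronan to versican in the cardiac jelly, had 9.93, 7.59, 14.7 and 10.8 CPM at E16.5, against 152, 162, 145 and 165 CPM at E12.5 (log2 fold change -3.86 ± 0.19, adjusted p = 8.74e-11). Its partners fell with it, versican (Vcan, -1.70) and the hyaluronan synthase Has2 (-2.66), whereas elastin (Eln, 1.48), asporin (Aspn, 3.98), osteoglycin (Ogn, 2.08) and tenascin-X (Tnxb, 2.21) rose. Of 27 basement-membrane genes 10 rose, 6 fell and 11 did not pass. Itga7, the laminin receptor of mature muscle, was among the rises (3.36).

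Markers of the other cells of the heart moved with these groups. Transcripts of 14 fibroblast markers summed to 3396 to 4242 CPM at E16.5 and 1689.8 to 2147 CPM at E12.5, and 10 rose, 1 fell and 3 did not pass. Dpt, a matrix protein of mature fibroblasts, had 130.4, 93.8, 126 and 106 CPM in the E16.5 libraries, against 5.92, 5.24, 5.61 and 4.04 CPM in the E12.5 libraries (log2 fold change 4.45 ± 0.32). Regulators of the lineage did not share the rise: Tcf21 had 75.6, 57.7, 64.9 and 67.0 CPM at E16.5, against 62.2, 70.7, 68.8 and 61.4 CPM at E12.5 (log2 fold change 0.01 ± 0.16, adjusted p = 0.966), and the receptor Pdgfra had 57.2, 60.8, 68.6 and 48.1 CPM at E16.5, against 128, 126, 97.5 and 133 CPM at E12.5 (log2 fold change -1.04 ± 0.15). Col1a1, Col3a1, Dcn and Lum stand in this list and in the matrix lists, and the part of fibroblast number in the matrix changes was not tested.

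Coronary and capillary endothelial markers summed to 1442 to 1518 CPM at E16.5 and 786 to 904 CPM at E12.5, with 17 of 24 higher, 14 of them by at least 2-fold, 3 lower and 4 not passing (median 1.73). Fabp4, a fatty acid carrier of capillary endothelium, had 198, 160.4, 178 and 174 CPM in the E16.5 libraries, against 9.6, 7.49, 7.22 and 3.17 CPM in the E12.5 libraries (log2 fold change 4.69 ± 0.51). Gpihbp1, which holds lipoprotein lipase on the capillary wall, had 27.6, 23.5, 24.7 and 31.8 CPM at E16.5, against 0.850, 1.11, 0.749 and 0.950 CPM at E12.5 (log2 fold change 4.88 ± 0.20). Ly6c1 (4.15) and the transcription factor Meox2 (4.46) of capillary endothelium rose too. Of the general endothelial genes, Kdr (0.04) did not pass and Pecam1 rose (0.45). Fabp4 and Cd36 stand in both this list and the fatty acid list, and the share of endothelium in the fatty acid rise was not tested.

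Endocardial and valve markers went the other way, with 10 of 14 lower, 1 higher and 3 not passing, and summed levels of 889 to 962 CPM at E16.5 and 1399 to 1586 CPM at E12.5. Twist1 (-2.30), Msx2 (-2.18) and Sox9 (-1.12), factors of cushion mesenchyme, fell. Cartilage and tendon genes, which cushions also express, summed to 35.7 to 55.1 CPM at E16.5 and 186 to 234 CPM at E12.5, and the cartilage collagen Col2a1 fell by 4.26 on the log2 scale. Of 15 epicardial markers 7 fell, 2 rose and 6 did not pass; Bnc1 (-1.17) and Krt18 (-0.83) fell and mesothelin (Msln, 1.95) rose. Wt1, the epicardial regulator, fell by 0.31 on the log2 scale, and no longer passed without E16.5 replicate 2. Mural cells gave 8 rises and 3 falls among 16 markers, with sums of 2338 to 2716 CPM at E16.5 and 2595 to 2941 CPM at E12.5, and the 8 became 5 without E12.5 replicate 1 or 3 or without E16.5 replicate 1 or 2. The pericyte genes Rgs5 (1.24) and Kcnj8 rose and the smooth-muscle genes Tagln and Cnn1 fell.

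**Figure D3:**
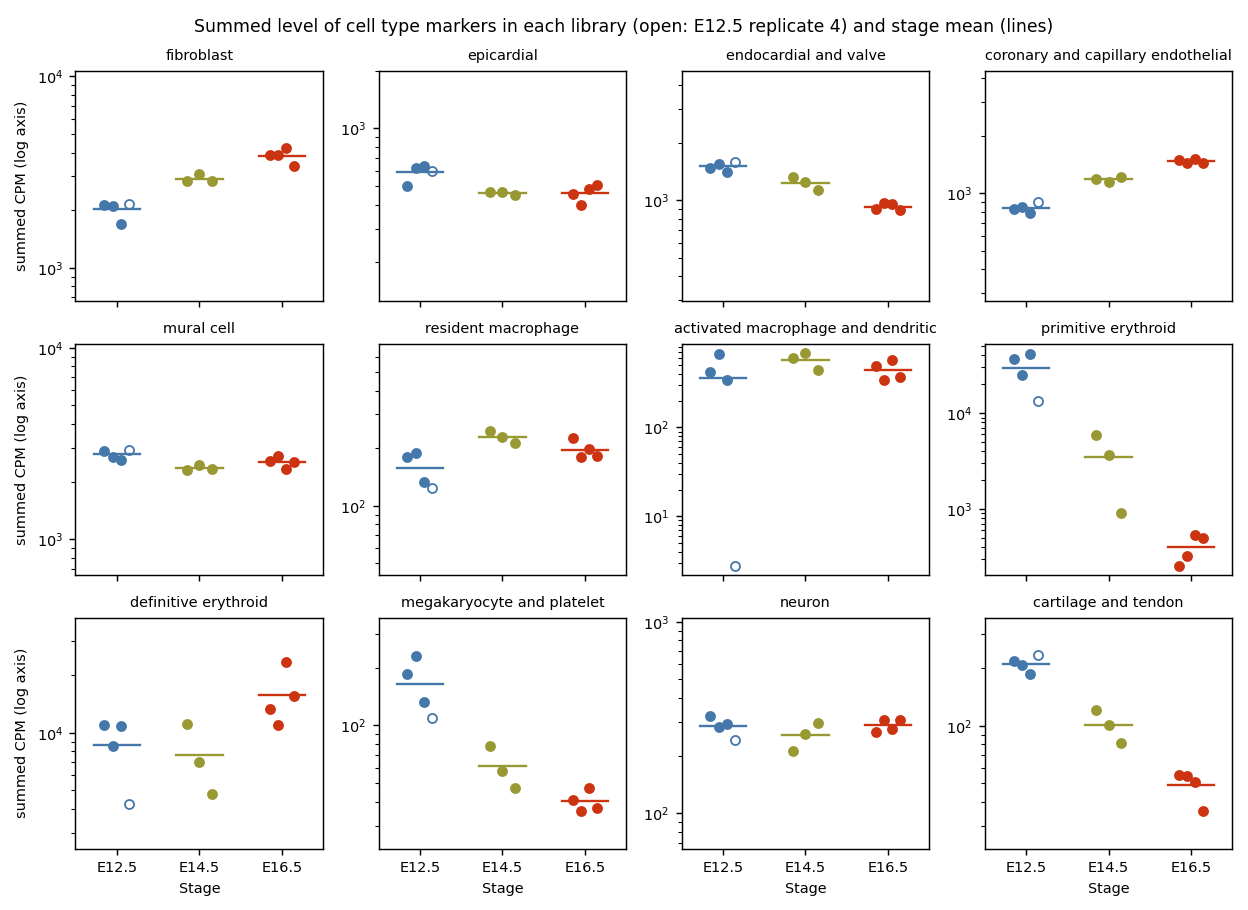
Summed level in CPM (log axis) of the markers of 12 cell types in each library at E12.5, E14.5 and E16.5, with the open circle for E12.5 replicate 4. Fibroblast and coronary endothelial sums are higher at E16.5, primitive erythroid and megakaryocyte sums lower, and the activated macrophage sum of E12.5 replicate 4 lies far below all others.

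Other cells that a dissected heart can hold gave low or overlapping levels. Resident macrophage markers summed to 180.2 to 225 CPM at E16.5 and 123 to 189.8 CPM at E12.5, with 5 of 19 higher, 1 lower and 13 not passing, and the 5 became 3 without E12.5 replicate 3, without E16.5 replicate 1 or without E16.5 replicate 4, and 8 without the 5 libraries low in macrophage-type transcripts. None of the 8 transcripts of activated macrophages passed with edgeR or with DESeq2, and 0 had an unadjusted p under 0.05 (sums of 341 to 572 CPM at E16.5 and 2.75 to 676 CPM at E12.5). Their median log2 fold change of 0.34 turned to -0.07 without E12.5 replicate 4. Mast-cell proteases Cma1 (4.16 ± 0.637 CPM at E16.5 and 0.0190 ± 0.0128 CPM at E12.5) and Cpa3 (4.07 ± 0.815 CPM at E16.5 and 0.447 ± 0.250 CPM at E12.5; SD, n = 4 each) rose, and the E12.5 mean of Cma1 lies under the level of 3 counts. Neuron markers overlapped at 267 to 308 CPM at E16.5 and 242 to 323 CPM at E12.5. Lung epithelium markers overlapped too, at 4.09 to 15.6 CPM at E16.5 and 2.83 to 9.42 CPM at E12.5. The skeletal-muscle regulators Myod1 and Myf5 had no counts in the 8 libraries, whereas the regulator Myog had enough counts to be tested and did not pass. Of the 6 skeletal-muscle genes tested, 2 rose, 2 fell and 2 did not pass. The adipocyte genes Adipoq, Plin1 and Cidec were too low to be tested.

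Blood carried by the heart changed its globins. The primitive erythroid list of 7 genes held the yolk-sac globins Hba-x, Hbb-y and Hbb-bh1. Its other members, Gata1, Klf1, Epor and Alas2, are not particular to that lineage. The 7 genes summed to 258 to 536 CPM at E16.5 and 13506 to 41732 CPM at E12.5, with 6 lower and 1 not passing. Hbb-y, the embryonic beta-like globin, had 15.5, 63.9, 54.5 and 97.8 CPM in the E16.5 libraries, against 27785, 17889.7, 26135 and 9680.1 CPM in the E12.5 libraries (log2 fold change -8.46 ± 0.78). It took 0.00554 ± 0.00314% of all counts at E16.5 and 2.02 ± 0.810% at E12.5 (SD, n = 4 each). Hbb-bs, an adult beta-globin whose near-identical neighbour Hbb-bt can share its reads, had 6394, 4902, 10721 and 7232 CPM at E16.5, against 549, 641, 369.6 and 189 CPM at E12.5 (log2 fold change 4.06 ± 0.82). Most red-cell membrane and maturation genes did not follow Hbb-bs. Of 17 definitive erythroid genes tested, adult globins among them, 10 were lower, 3 higher and 4 did not pass. Alas2 stands in both lists, so the definitive list is not particular to its lineage either. Levels of the adult alpha-globins are not reported here. The blood-group protein Ermap had 0.768, 0.922, 1.08 and 0.782 CPM at E16.5, against 124, 81.9, 122 and 47.3 CPM at E12.5 (log2 fold change -6.71 ± 0.36), and the anion exchanger Slc4a1 had 30.4, 37.4, 72.5 and 63.8 CPM at E16.5, against 694, 612, 931 and 371 CPM at E12.5 (log2 fold change -3.68 ± 0.33). All 10 markers of megakaryocytes and platelets fell, with sums of 35.8 to 47.4 CPM at E16.5 and 109.9 to 232 CPM at E12.5. Hbb-y, Ermap and Slc4a1 were all lowest in replicate 4 among the E12.5 libraries, and how much blood each pool retained was not tested.

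Genes that respond to glucocorticoids, genes of the clock and genes that respond to low oxygen rose in larger numbers than they fell. Of 18 glucocorticoid-responsive genes 11 rose, 1 fell and 6 did not pass (median 0.62). Their summed level, which includes the abundant Cdkn1c, was nevertheless lower, at 898 to 954 CPM at E16.5 and 1487 to 1598 CPM at E12.5. Zbtb16, a zinc-finger factor induced by glucocorticoids in many cell types, had 19, 15.1, 13.4 and 11.6 CPM in the E16.5 libraries, against 1.51, 1.89, 1.59 and 1.53 CPM in the E12.5 libraries (log2 fold change 3.18 ± 0.21). Klf9 (1.21) and Per1 (1.54) rose too, and the 1 member that fell was Cdkn1c. Of 16 clock genes 12 rose, 1 fell (Cry2, -0.84) and 3 did not pass, and Npas2, the partner of the clock activator, had 10.4, 9.58, 8.39 and 10.1 CPM at E16.5, against 1.15, 1.0, 0.976 and 0.475 CPM at E12.5 (log2 fold change 3.41 ± 0.22). The time of day at which hearts were taken is not in the labels, and its part in the clock genes was not tested. Of 19 hypoxia-response genes 11 rose, 4 fell and 4 did not pass, led by Ndrg1 (2.33), Egln3 (2.09) and Ndufa4l2 (2.0), while Hif1a fell (-0.66) and Epas1 rose (0.86). Of 30 antioxidant genes 11 rose, 8 fell and 11 did not pass; mitochondrial Sod2 (0.93) rose, and Gpx1 (-0.99) and Gclm (-1.16) fell.

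The 14 largest rises among genes that reached 10 CPM at either age were Ptgds, Plin4, Abca8a, Ckm, Myom2, Kcnip2, Gpihbp1, Aoc3, Dhrs7c, Fabp4, Meox2, Dpt, Sln and Isg20. Ptgds, a prostaglandin D synthase, had 100.1, 74.7, 72.8 and 88.9 CPM in the E16.5 libraries, against 2.71, 1.57, 1.20 and 0.449 CPM in the E12.5 libraries (log2 fold change 5.83 ± 0.58). Plin4, a coat protein of lipid droplets, had 17.6, 10.1, 9.01 and 7.82 CPM at E16.5, against 0.165, 0.324, 0.159 and 0.132 CPM at E12.5 (log2 fold change 5.82 ± 0.36). Muscle, capillary and fibroblast genes were mixed among these 14. The 14 largest falls were Lmx1a, Hsd3b6, Ermap, Pdzk1ip1, Rhag, Kel, Hemgn, Epb42, Slc30a10, Slfn14, Klf1, Grap2, Ccdc92b and Col2a1. Several of them, among them Ermap, Rhag, Kel, Epb42 and Klf1, are red-cell genes. Lmx1a, a LIM-homeodomain factor best known from the nervous system, had 0.0320, 0.0298, 0 and 0.391 CPM at E16.5, against 20.3, 17.6, 44.9 and 13.2 CPM at E12.5 (log2 fold change -7.73 ± 0.69), and its highest E12.5 library was also the one with the most Klf1. Hsd3b6, a steroid dehydrogenase, had 0.672, 1.16, 2.13 and 1.37 CPM at E16.5, against 237, 180.5, 215 and 109 CPM at E12.5 (log2 fold change -7.11 ± 0.58).

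With E14.5 between the ages, the change could be placed in time. Of the 1165 genes that rose at least 2-fold, 568 passed already between E12.5 and E14.5, 602 passed between E14.5 and E16.5, and 362 passed in both. Of the 915 genes that fell at least 2-fold, 473 passed in the earlier interval, 441 in the later and 238 in both. The median gene had covered 0.470 of its log2 rise by E14.5, and 0.482 of its log2 fall. The difference between the intervals was tested directly, and 281 of 18885 genes passed (1.49%). These included 38 of the genes that rose at least 2-fold, of which 22 rose more in the later interval, and 64 of the genes that fell at least 2-fold, of which 44 fell more in the earlier interval.

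Some genes changed mainly on one side of E14.5. Ckmt2 gained 2.58 ± 0.11 between E14.5 and E16.5, and 0.42 ± 0.11 between E12.5 and E14.5, on the log2 scale with SE (adjusted p of the difference = 2.79e-05). Acsl1 gained 1.62 ± 0.09 in the later interval and 0.79 ± 0.08 in the earlier (adjusted p = 0.00971). Both genes thus rose more after E14.5. Apln, the apelin of sprouting coronary vessels, was the opposite case, with 6.99, 6.89, 6.97 and 8.45 CPM at E12.5, 25.9, 23.1 and 30.8 CPM at E14.5 and 27.9, 25.1, 28.4 and 28 CPM at E16.5. Its rise came before E14.5 (0.04 ± 0.12 in the later and 1.86 ± 0.12 in the earlier interval, adjusted p = 2.41e-04). Tnnt1, the slow skeletal troponin T, had 211, 199.8, 221 and 177 CPM at E12.5, 261, 279.8 and 258 CPM at E14.5 and 88.5, 66.8, 108 and 96.9 CPM at E16.5 (adjusted p of the difference = 9.99e-05), so that its fall came after E14.5. Slc4a1 fell by E14.5 and changed little after it (-0.19 ± 0.32 in the later and -3.49 ± 0.37 in the earlier interval, adjusted p = 0.0191). The 5 genes with the largest difference in that direction were Add2, Adra2b, Ccdc92b, Rhd and Slc4a1. The number of genes that passed rested on the E14.5 libraries, with 35 without E14.5 replicate 2, 57 without E14.5 replicate 1 and 176 without E14.5 replicate 3.

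**Figure D4:**
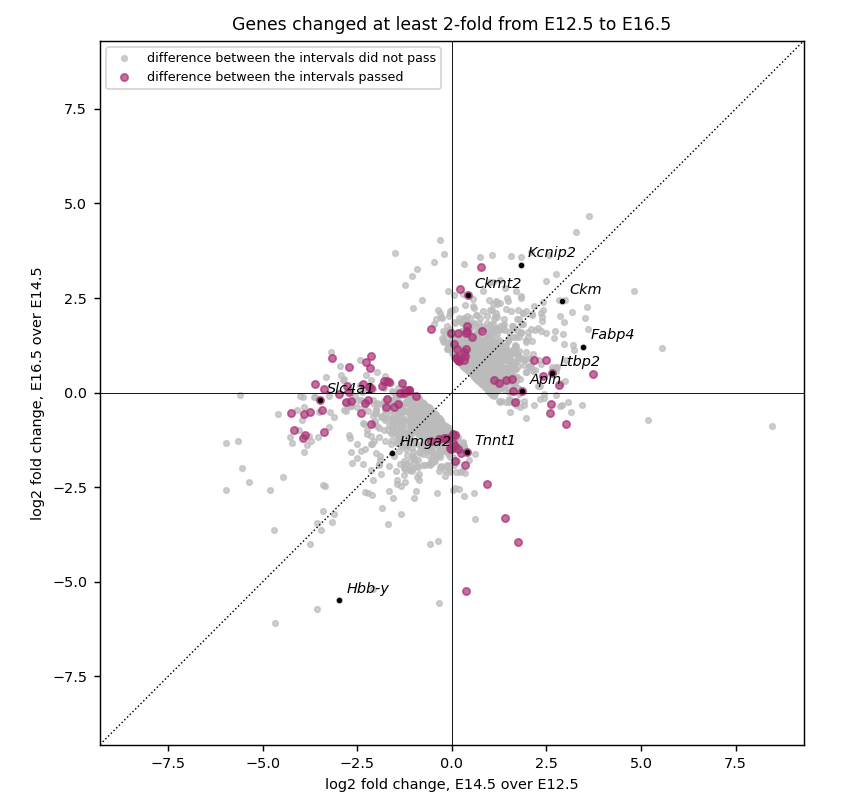
Log2 fold change between E12.5 and E14.5 (x axis) against that between E14.5 and E16.5 (y axis) for the genes that changed at least 2-fold from E12.5 to E16.5. Purple points passed the test of a difference between the intervals, 38 of the 1165 genes that rose and 64 of the 915 that fell.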

How the data were processed

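RNA was extracted from dissected embryonic hearts with a micro-scale kit for total RNA, per the labels' protocols. The authors deposited raw counts per Ensembl gene, 1 table per library. Tools listed in the submitters' processing notes are featureCounts, Subread 1.5.2, STAR 2.5.2b and Trimmomatic 0.36, and the builds are GRCm38 and mm10. Strand setting, tool order and annotation were not given in the sources used here, so overlapping genes on opposite strands may share reads. Symbols and exon lengths came from GENCODE M21 (GRCm38), which held 48970 of the 49315 identifiers.

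Counts were tested with edgeR 4.0.16 (R 4.3.3): TMM scaling, filterByExpr by age, and a robust quasi-likelihood fit of all 18 libraries with age as the only term. The contrasts were E16.5 minus E12.5, and the change after E14.5 minus the change before it, with Benjamini-Hochberg adjustment over all 18885 genes and a threshold of 0.05. The standard error of a log2 fold change is its size divided by the square root of F. CPM values use TMM-scaled totals. Isoform ratios and comparisons of levels between genes use CPM per kilobase of exon. Levels of up to 3 counts were not read as signal, and this floor covers counting error only. The test was checked on simulated counts of 18544 genes, with 50 genes changed at each fold and all others flat over the ages. It recovered 62% of 1.5-fold and 90% of 2-fold changes, and 3.41% of its calls were false. Far fewer genes changed there than the 43.4% that differ here, so the check does not cover that setting.

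The 54 gene lists and the 22 pairs were chosen with earlier results of these data known. Named genes are the 14 largest rises and 14 largest falls among protein-coding genes with a mean of at least 10 CPM at either age and no overlap between libraries (globin, mitochondrial, ribosomal-protein and predicted genes left out), up to 4 members of each list in each direction with the smallest p, both genes of each pair, and the 5 genes with the largest difference between intervals each way. Other genes named were chosen after their values were seen, and a few that the rule names are not reported here. Counts of any 2 libraries of an age differed beyond what sampling gives (chi-square divided by its degrees of freedom, 15.7 to 79.8). Each library was taken as 1 replicate, though this spread does not show that the pools were independent. Promoter windows came from RefSeq (GRCm38.p6). Motif shares are given for the DNA-replication and mitosis lists, with the CCAAT share of the citric acid cycle list beside them. Other lists were counted as well and are not reported here. At least 80% of members had a window in these lists and in the thick-filament list. Of all tested protein-coding genes 78.7% had one. The alternatives tried were other scalings and filters, DESeq2 1.42.0, the 8 libraries alone, thinned counts, a replicate block, and leaving out single libraries; leaving out E14.5 libraries and the DESeq2 counts per list were chosen after seeing the data.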

Additional observations from a re-analysis of the deposited data

Results flagged for a closer look

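Among 212 groups of 4 libraries checked for a library far from the other 3 (Dixon's test), 14 were marked, and chance marks about 1 in 20. Sln, Acsl1, Cox8b and Cdkn2c gave 4 of them. Sln was 159 CPM in E16.5 replicate 2, against 265 to 277 CPM in the other E16.5 libraries. Acsl1 was 35.0 CPM in E12.5 replicate 3, against 39.4 to 39.9 CPM in the other E12.5 libraries. Cox8b was 10.8 CPM in the same library, against 6.55 to 6.97 CPM. Cdkn2c was 74.7 CPM in E16.5 replicate 4, against 60.4 to 61.6 CPM in the other E16.5 libraries. None of these gaps brought an E16.5 library into the range of the E12.5 libraries.

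Apln was 25.1 CPM in E16.5 replicate 2, against 27.9 to 28.4 CPM in the other E16.5 libraries, and 8.45 CPM in E12.5 replicate 4, against 6.89 to 6.99 CPM in the other E12.5 libraries. Lmx1a was 0.391 CPM in E16.5 replicate 4, against 0 to 0.0320 CPM in the others of that age. Plin4 was 0.324 CPM in E12.5 replicate 2, against 0.132 to 0.165 CPM. E12.5 replicate 3 had 45646538 counts, against 36361812 to 37763661 in the other E12.5 libraries, and its fibroblast markers summed to 1690 CPM, against 2102 to 2147 CPM. Lymphatic endothelial markers summed to 285 CPM in E16.5 replicate 4, against 334 to 344 CPM, and markers of other leukocytes summed to 27.8 CPM in E12.5 replicate 4, against 22.1 to 23.0 CPM. The log2 ratio of Hk2 over Hk1 was -1.30 in E16.5 replicate 1, against -1.82 to -1.79, and that of Pygm over Pygb was -0.072 in E12.5 replicate 2, against 0.07 to 0.09.

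The change after E14.5 differed from the change before it for 281 genes. Of these, 200 had the more positive change in the later interval and 81 the more negative, and 226 also differed between E16.5 and E12.5.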

How the results depend on the processing

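The number of genes changed, 8203, ranged from 7350 (without E16.5 replicate 1) to 7805 (without E12.5 replicate 3) when single libraries were left out. It was 8094 with RLE size factors, 8492 with library totals only, 8319 with DESeq2, 7515 with no filter and 5971 with a minimum of 10 CPM in 4 libraries. Of 2080 genes changed at least 2-fold, 681 were left under that minimum, which tests fewer genes, and 1966 to 2056 when single libraries were left out. The 281 genes that differed between the intervals became 771 with DESeq2 and 459 without 5 libraries low in macrophage-type transcripts, and ranged from 35 (without E14.5 replicate 2) to 291 (without E12.5 replicate 4), with 57 without E14.5 replicate 1, 176 without E14.5 replicate 3 and 183 without E16.5 replicate 4; the cause was not tested. No named gene that passed changed sign. Medians of some gene lists did, and that of activated macrophage transcripts was -0.07 without E12.5 replicate 4, against 0.34 with it. Of 372 named genes, at most 15 lost their call under any 1 setting. Most of these genes were chosen for small p-values or large changes in the same data, so their calls are steadier than those of all genes. Without E16.5 replicate 1, 8183 of the 8203 genes called were still tested, and 7217 passed in the same direction.

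Replicate numbers did not pair the libraries: deviations of same-numbered libraries correlated between -0.17 and 0.10, and those of other libraries between -0.24 and 0.23. With a replicate block in the 8-library fit 7436 genes changed (3800 higher and 3636 lower), against 8219 without the block, and H3f3b, Eno1 and Slc16a3 were among the genes that no longer passed. Depth limits what can be read below about 0.1 CPM, as for Lmx1a at E16.5, Trim71 in E16.5 replicate 2 and Cma1 at E12.5.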

Other observations

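Some groups of genes lie outside the account above. Of 17 tested histone genes, 2 rose, 6 fell and 9 did not pass (median -0.16), and the falls were 3 without E12.5 replicate 3 or without E16.5 replicate 3. H1f0, the linker histone of cells that leave the cycle, rose (log2 fold change 0.42 ± 0.08), and so did the variant H2afv (0.32), while the replication-dependent Hist1h4i (-0.85) and the variant H3f3b (-0.22) fell. H3f3b no longer passed with no filter on low counts (adjusted p = 0.051, edgeR). Lymphatic endothelial markers gave 4 rises, 2 falls and 3 genes that did not pass among 9. Lyve1, a hyaluronan receptor of lymphatic vessels and of some macrophages, rose (2.0 ± 0.16), and Reln, a matrix protein secreted by lymphatic endothelium, fell (-1.51 ± 0.28).

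Of 18 neuron markers 2 rose, 4 fell and 12 did not pass (6 higher without the 5 libraries low in macrophage-type transcripts), with Dbh, the enzyme that makes noradrenaline, at 2.07 ± 0.469 CPM at E16.5 and 0.554 ± 0.121 CPM at E12.5 (SD, n = 4 each). Of 11 neural crest and Schwann cell markers 3 rose, 1 fell and 7 did not pass. Skeletal-type muscle genes moved both ways. Myh8, the perinatal skeletal myosin heavy chain, averaged 11.7 ± 0.994 CPM at E16.5 and 0.764 ± 0.182 CPM at E12.5 (SD, n = 4 each), a rise of 3.94 ± 0.21 on the log2 scale, while the fast-muscle genes Actn3 (-1.48) and Mylpf (-1.21) fell.

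By annotation, 3458 of 15390 protein-coding genes tested were higher at E16.5 (22.5%) and 4050 were lower (26.3%). Of 632 long intergenic non-coding RNAs, 91 were higher (14.4%) and 97 lower (15.3%), and of 734 antisense genes, 94 were higher (12.8%) and 83 lower (11.3%). Of 18 mitochondrial transfer RNA genes, 9 were higher.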
